A study of Homo sapiens with 18 samples.

Results

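Baseline mRNA turnover was described in HEK293T, an established line from human embryonic kidney that grows fast and carries viral transforming genes, after treatment with the solvent DMSO. All 8996 of 8996 genes in the deposited kinetics table had a finite DMSO half-life and a DMSO synthesis rate above 0, and all were used. The labels give the line as wild type, and place 9 of the 18 samples of the study in the DMSO arm: 3 without s4U, 3 with 100 µM s4U for 90 min and 3 with it for 180 min, each after 3 h in DMSO. The other 9 samples received STM2457, an inhibitor of the m6A writer METTL3, and are used here only as a second fit of the same genes. For each gene and arm, a single fitted half-life and a single fitted synthesis rate were deposited, without values per replicate, intervals or read counts. Depth is therefore unknown, every difference between genes below is a difference between fitted values with no replicate check, and no p-value is given.

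In SLAM-seq, cells build 4-thiouridine (s4U) into the RNA they make, and iodoacetamide turns each s4U into a position read as a T-to-C conversion, so new RNA is told from old in the same library. The level of an mRNA at steady state is its synthesis rate divided by its decay rate, so a given level can be held by fast synthesis of a short-lived RNA or by slow synthesis of a long-lived one. Background knowledge gives short half-lives to many mRNAs of regulators, whose 3′ UTRs often carry AU-rich or Pumilio elements that recruit deadenylases, and long ones to mRNAs of the metabolic and translation machinery. Ribosomal protein mRNAs begin with a C followed by a run of pyrimidines, the 5′ terminal oligopyrimidine (TOP) motif, which couples their translation to growth signals.

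The sequences below are shown because they are examples of the elements counted among the shortest-lived and longest-lived genes. They come from GENCODE release 29 transcripts on GRCh38, are written 5′ to 3′ in the sense of the mRNA with T for U, and have the motif in capitals. The first 3 carry the AU-rich nonamer TTATTTATT, the next 4 the Pumilio octamer TGTANATA, in both cases within the last 500 bases of the 3′ UTR, and the last 5 the first 20 bases of the transcript with the TOP run in capitals.
ZFP36L1: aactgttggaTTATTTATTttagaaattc
RGS16: gtttaaatatTTATTTATTgtgacaaatg
KLF5: ttgtttatctTTATTTATTttgtggtaat
NFKBIA: ctgtaaatggTGTACATAatgtattgtt
FBXO5: gtctcttgtaTGTACATAtaaaaataaa
ID2: ctgaatgctgTGTATATAtttatatata
E2F3: tgatggatttTGTAAATAgatttgttac
RPL32: CCCTTCTCTCTTCCTCggcg
RPS24: CTCTTTTCCTCCTTggctgt
RPL35: CTTCCTCTTTCCCTCggagc
RPS27A: CCCCTCgacctccttttaaa
EIF4A2: CTTTTCagtcgggcgctgag

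The site printed for ZFP36L1, a protein that itself binds AU-rich elements, lies at chr14:68788077-68788105 on the minus strand. The site of RGS16, a brake on G protein signalling, is at chr1:182598719-182598747 (minus). That of the transcription factor KLF5 is at chr13:73077177-73077205 (plus). The Pumilio match of NFKBIA, the inhibitor of NF-κB, lies at chr14:35401567-35401594 (minus). Those of FBXO5, an inhibitor of the anaphase-promoting complex, ID2, which blocks basic helix-loop-helix factors, and E2F3 are at chr6:152970550-152970577 (minus), chr2:8684109-8684136 (plus) and chr6:20493584-20493611 (plus). The annotated 5′ ends of RPL32 (chr3:12841527-12841546, minus), RPS24 (chr10:78033863-78033882, plus), RPL35 (chr9:124861942-124861961, minus) and RPS27A (chr2:55232402-55232421, plus) belong to genes at the longest half-life in the table. EIF4A2, an initiation helicase (chr3:186783577-186783596, plus), had 1.79 h, so a TOP-like start was also found on a short-lived mRNA.

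The median half-life was 5.61 h, with quartiles of 2.99 and 10.4 h. The range ran from 0.0266 to 69.3 h, and the SD of the log2 half-life over genes was 1.38. No time unit is named in the table, and hours are inferred because the highest value equals ln 2 over a decay rate of 0.01. That highest value is a ceiling: 229 genes (2.55%) share it, and their half-lives cannot be ranked. Few fits lay in the window that the labelling itself spans: 1724 genes (19.2%) had half-lives of 1.5 to 3 h, 549 (6.10%) were below the shortest labelling time and 6723 (74.7%) above the longest. Values below 0.5 h (13 genes) and above 24 h (702 genes, 7.80%) lie farthest from that window.

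Synthesis rates spread more widely than half-lives. Their median was 83.7 with quartiles of 42.1 and 169, in a unit per hour that the table does not name, and the SD of log2 values was 1.62. Implied abundance, synthesis times half-life over ln 2, had a median of 617, quartiles of 308 and 1341, and a log2 SD of 1.55. These abundances summed to 1.45e+07, so they are not on the TPM scale. The libraries read the 3′ end of the RNA, and the sources used here do not give whether the rates were scaled by length. Synthesis rates and abundances are therefore compared between genes as the table gives them, and the effect of multiplying by Length is given in the closing section.

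Genes with short half-lives had high fitted synthesis rates. With the genes in 5 equal groups from the shortest-lived to the longest-lived, median synthesis went from 165 through 95.0, 74.5 and 61.1 to 42.9, while median implied abundance rose from 382 through 468, 598 and 820 to 1377. Across the 8996 genes, Spearman's rho of half-life with synthesis was -0.446. Implied abundance ranked more closely with synthesis (0.608) than with half-life (0.373), and since it is their product, part of both relations is by construction. This order was lost in the STM2457 fit, where rho was 0.597 with synthesis and 0.605 with half-life. Split at the 2 medians, 2872 genes (31.9%) combined fast synthesis with fast decay and as many combined slow synthesis with slow decay. Fast synthesis with slow decay, and slow synthesis with fast decay, held 1626 genes (18.1%) each.

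**Figure D1:**
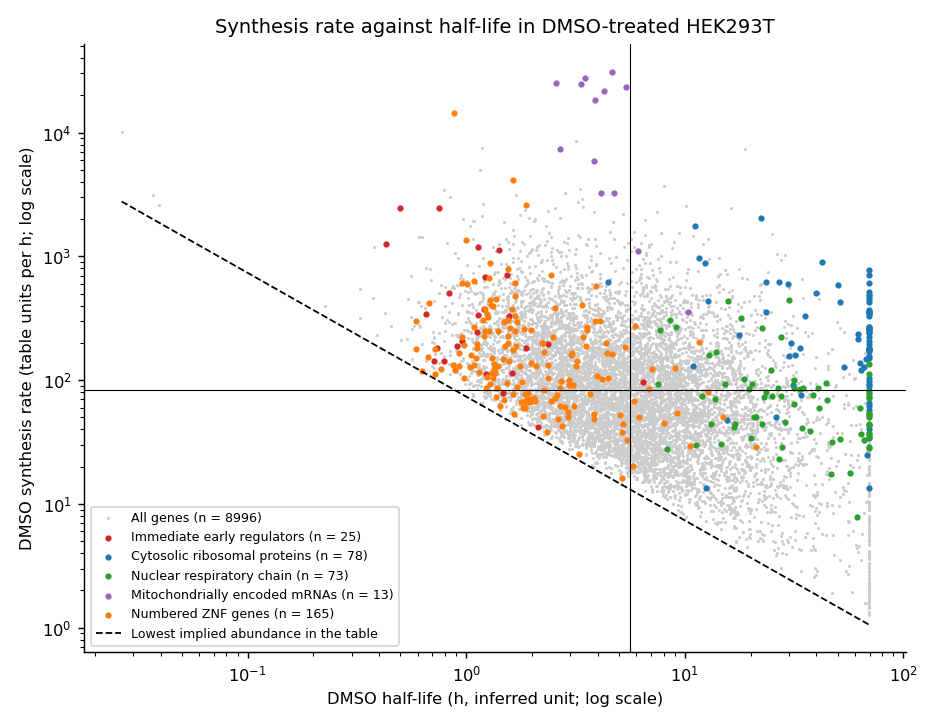
DMSO synthesis rate (y axis, table units per h, log scale) against DMSO half-life (x axis, h, log scale) for 8996 genes in grey, with 5 gene lists coloured; thin lines mark the medians of 5.61 h and 83.7, and the dashed line the lowest implied abundance of 106. The cloud ends along the dashed line at its lower left and at the ceiling of 69.3 h on the right, and the coloured lists occupy different corners of it.

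The lower left corner of that cloud is empty. The lowest implied abundance in the table was 106, in STK33, a kinase with a half-life of 5.11 h and a synthesis rate of 14.4. At this lower edge, a gene with a half-life of 1 h needs a synthesis rate of at least 73.7 to be listed, and 4045 genes (45.0%) had lower rates than that. Among the 5958 genes with half-lives of at least 2 h and synthesis of at least 36.8, a rectangle that this edge does not cross, rho was -0.131, against -0.446 over all genes. Both values of a gene also come from 1 fit, and the part of shared fitting error in the relation was not tested.

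Genes with a larger Length had shorter half-lives. Length is not the span of a gene on the chromosome: KIF16B, annotated at chr20:16272104-16573434, has a Length of 5261 bases. Over 5 equal groups by the table's Length column, median half-life fell from 10.4 h, where the median Length was 1559 bases, through 6.53, 5.49 and 4.70 h to 3.85 h, where it was 8008 bases, with rho of -0.334. Synthesis went slightly the other way, with rho of 0.174 against Length. In the GENCODE 29 transcripts with the longest coding sequence, available for 8496 genes, rho with half-life was -0.302 for coding length, -0.273 for 3′ UTR length and -0.129 for 5′ UTR length. GC content at the third position of codons had a rho of 0.122. Genes at the ceiling were concentrated in the group with the shortest Length, which held 153 of 229, against 5 in the group with the longest. The shortest-lived 200 were spread evenly over the same groups, as 39, 43, 41, 40 and 37.

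Exon junctions per kb of coding sequence ranked with half-life more closely than any other annotation feature computed, with rho of 0.411, although the plain number of coding junctions had a rho of 0.021. Exon junctions are where the exon junction complex is laid down on a spliced mRNA. The median half-life rose over 5 equal groups of junction density from 2.76 h through 4.63, 6.24 and 7.36 to 8.27 h. Of the 162 shortest-lived genes with a coding transcript, the lowest group held 116 and the highest 1. Genes with 0 coding junctions (347) had a median of 2.69 h and those with 1 (390) a median of 2.99 h, against 6.76 h for 2 to 4 junctions, 6.49 h for 5 to 9, 5.68 h for 10 to 19 and 5.24 h for 20 or more. Within 5 equal groups of coding length, rho with junction density was 0.299 in the shortest and 0.420 to 0.439 in the other 4. Without the numbered ZNF genes, many of which code their fingers in 1 exon, it was 0.394.

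**Figure D2:**
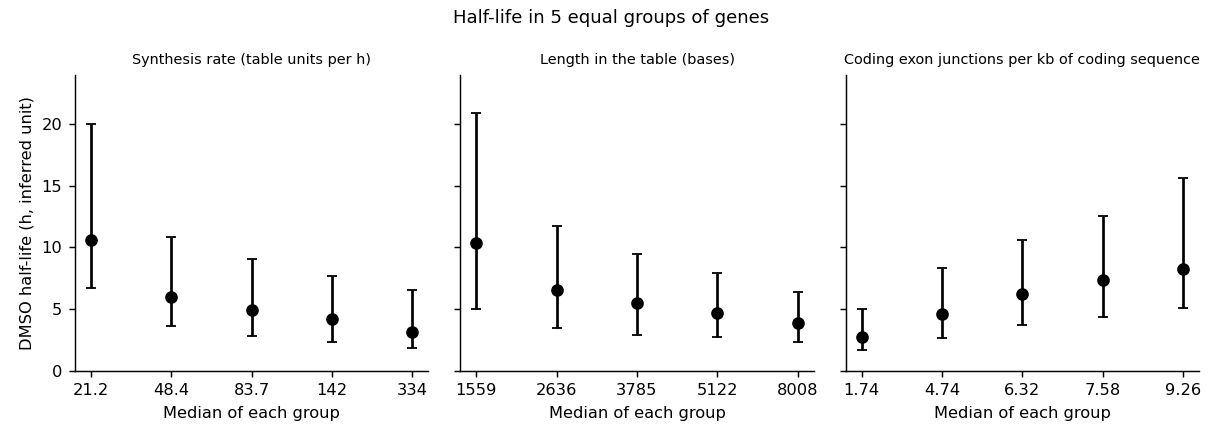
DMSO half-life (y axis, h) in 5 equal groups of genes ordered by synthesis rate, by Length and by coding junction density (x axis, the median of each group); points are medians and bars the quartiles over genes. Median half-life falls from 10.6 to 3.15 h with synthesis and from 10.4 to 3.85 h with Length, and rises from 2.76 to 8.27 h with junction density, while the quartiles of neighbouring groups overlap.

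The 200 shortest-lived genes had half-lives of up to 1.09 h, which is the rule that chose them. MAP3K1 and ZNF827, both at 1.09 h, were the last inside, and MTF1 and HEY1 (both 1.09 h) the first outside. Their median synthesis rate was 261, against 83.7 for all genes, and 198 of 200 were above the median of all genes. By the lower edge described above, a gene this short-lived must have a rate near or above 73.7 to be in the table, so this excess is partly fixed by the table's own limit. Their median implied abundance was 305, and 45 of 200 were above the median of 617. Their Length was close to that of all genes (3704 against 3785 bases).

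Transcription factors and signalling inhibitors were frequent among the shortest-lived genes. The 45 gene lists described below covered 80 of the 200. Among them, 24 were numbered ZNF genes, 11 feedback inhibitors of signalling, 10 immediate early regulators, 7 KLF or ZBTB factors, 5 HOX genes and 5 hosts of snoRNAs or other long non-coding RNAs, with a gene counted under each list that holds it. As a share of the lists, these are 24 of 165, 11 of 20, 10 of 25, 7 of 30, 5 of 27 and 5 of 33, against 2.22% of all genes. The immediate early list was written from genes known for short-lived mRNAs, and all lists were chosen with earlier results of these data known. These shares are therefore no independent evidence. Of the 200, 38 were not annotated as protein coding. Protein-coding genes made up 81% of the 200, against 95.7% of all genes.

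The 3 lowest values were AL158152.1 (0.0266 h), AC027290.2 (0.0370 h) and ADM, which codes for a vasodilator peptide (0.0395 h). Each combined this with a synthesis rate among the highest in the table, at 10133, 3103 and 2618, and with an implied abundance below the median of all genes, at 388, 166 and 149, the last 2 near the lower edge of the table. In the STM2457 fit the same genes had 0.250, 0.392 and 0.477 h, so they were short-lived there too, at several times the DMSO value. Next came MYLIP, a ubiquitin ligase, at 0.227 h, and then AC002558.3 (0.328 h), NSRP1P1 (0.329 h), HOXA3 (0.373 h), RPS27AP12 (0.379 h), MIR222HG (0.393 h) and Z95331.1 (0.424 h). NSRP1P1 and RPS27AP12 are processed pseudogenes, whose reads can be shared with their parent genes, and HOXA3 and Z95331.1 overlap exons of other genes on the same strand. Their values are uncertain for that reason.

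A few of the short-lived mRNAs were nevertheless abundant. ZNF503, a zinc finger repressor, had a half-life of 0.880 h and a synthesis rate of 14500, which implies an abundance of 18401. TAF1D, a subunit of the RNA polymerase I initiation factor and a snoRNA host, had 0.792 h and 3429, and ZBTB7A, a BTB zinc finger repressor, had 0.843 h and 3023. HES1, the Notch target that oscillates in progenitors, had 0.4997 h and 2439, and ID2 had 0.748 h and 2461. At the other end, ERRFI1, a feedback inhibitor of the EGF receptor, had the lowest synthesis rate of the 200, at 74.2 with 1.07 h, and an implied abundance of 115.

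The genes at the ceiling differed in most other respects. Their median synthesis rate was 22.997, their median implied abundance 2300, and their median Length 1589 bases. In the annotation they had a median coding length of 525 bases and a median 3′ UTR of 316 bases, against 1457 and 1398 in the shortest-lived 200 and 1392 and 1054 in all genes. The 200 genes next below the ceiling (34.98 to 68.8 h) were alike, with medians of 27.7 for synthesis, 1909 for abundance and 2108 bases for Length. PRCP (68.8 h), RPS26 (68.1 h) and GPX1 (67.9 h) were the highest below it.

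By role, the ceiling genes included 44 of the 78 cytosolic ribosomal protein genes, 17 of 73 nuclear-encoded respiratory chain or ATP synthase genes and 7 of 39 tubulin, actin or actin-binding protein genes, against 2.55% of all genes. The highest synthesis rates at the ceiling were those of RPS27A (775), RPL27A (713), RPS29 (615), RPL37A (514), RPS4X (491), RPS14 (477), RPS6 (449) and ACTG1 (435), the cytoplasmic gamma-actin. The lowest were those of the processed pseudogenes AC011476.1 (1.26), RPL4P4 (1.30) and AC008446.1 (1.34), the phosphoinositide phosphatase FIG4 (1.46) and the tetraspanin TSPAN7 (1.49). Processed pseudogenes were frequent at both ends: of 54, 8 were among the shortest-lived 200 and 12 at the ceiling, and their reads may come from the parent genes.

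**Figure D3:**
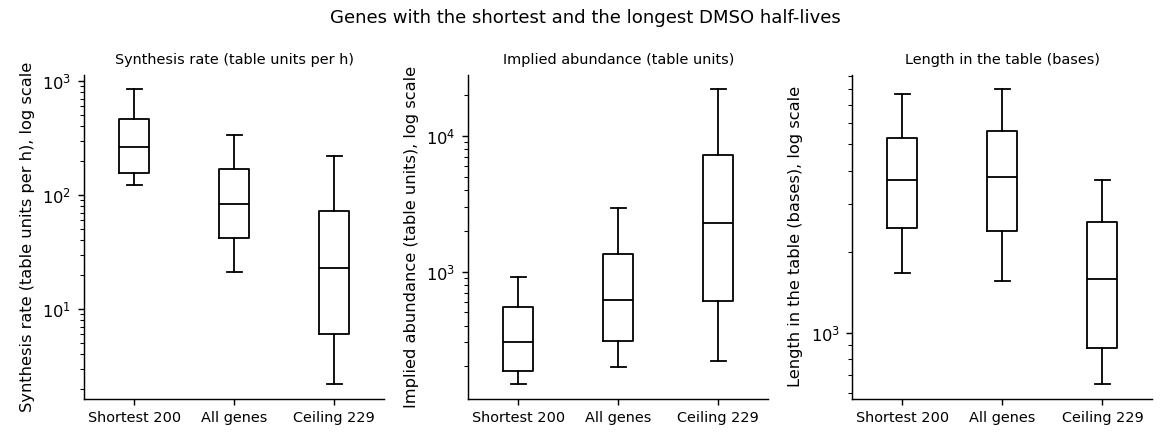
Synthesis rate, implied abundance (both in table units) and Length (bases), all on log scales, in the 200 shortest-lived genes, all 8996 genes and the 229 genes at the ceiling; boxes show quartiles with the median, whiskers the 10th and 90th percentiles over genes. Median synthesis falls from 261 to 22.997 between the extremes while median implied abundance rises from 305 to 2300, and the median Length of the ceiling genes is 1589 against 3785 of all genes.

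The sequence elements printed above were unevenly spread over these sets. Only genes whose 3′ UTR reached the window length were counted: 129 of the shortest-lived, 63 of the ceiling genes and 5880 in all. The nonamer TTATTTATT was found on the mRNA strand in 11 of 129 (8.53%) of the shortest-lived, 0 of 63 at the ceiling and 167 of 5880 (2.84%) overall. The Pumilio octamer TGTANATA was found in 40 of 129 (31.01%), 6 of 63 (9.52%) and 887 of 5880 (15.1%). The shorter ATTTA, which lies inside the nonamer, was found in 74.4%, 60.3% and 63.8%. The 3′ UTRs of the shortest-lived genes were also poorer in GC, with a median of 36.9% against 41.9% for all genes, a difference that favours AT-rich motifs, and its part in these shares was not tested. A match is a run of letters in an annotated transcript, not a measured site.

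A C followed by at least 4 pyrimidines at the annotated 5′ end was found in 21 ceiling genes with a coding transcript (10.5%), 1 of the shortest-lived (0.62%) and 248 of all genes (2.92%). Among the 78 cytosolic ribosomal protein genes, 17 had it on the transcript used. The TOP motif is known on most of them, and the transcript with the longest coding sequence need not have the main start site.

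The extremes were largely kept in the STM2457 fit, which comes from libraries that the ranking did not use but from cells under another treatment. The shortest-lived 200 had a median of 1.21 h there, 184 of them lay in the shortest quartile of that fit and 97 among its own shortest 200. Of the 229 ceiling genes, 211 were in its longest quartile and 163 at its ceiling, which was less exclusive, with 980 of all 8996 genes at it. Exceptions were large: LRRC8E, a volume-regulated anion channel subunit, went from 0.990 h with DMSO to the ceiling with STM2457, and ERRFI1 from 1.07 to 27.8 h.

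Gene families differed in the combination of synthesis and decay that most of their members used. Of 45 lists with at least 5 genes in the table, 19 had their largest share in fast synthesis with fast decay, 14 in fast synthesis with slow decay and 8 in slow synthesis with slow decay. In 4 lists 2 combinations tied. Slow synthesis with fast decay led alone in 0 lists, and this is also the class nearest the lower edge of the table. Median half-lives of the lists ran from 0.985 to 69.3 h. In 36 of the 44 lists with at least 10 genes, the ratio of the upper to the lower quartile of half-life was smaller than the 3.49 of all genes, while the same ratio for synthesis was smaller than the 4.01 of all genes in 31.

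**Figure D4:**
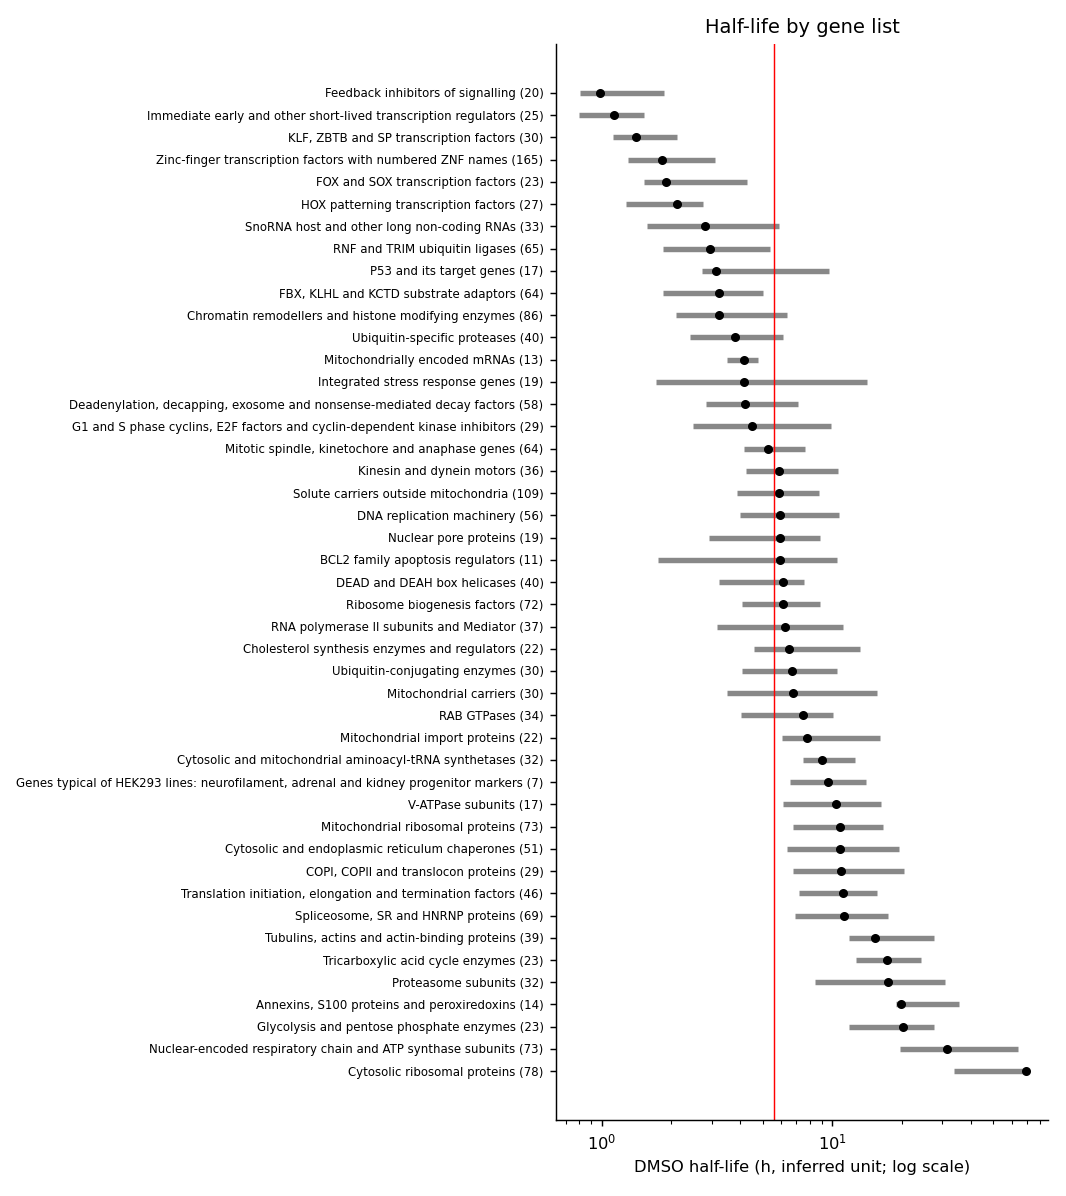
DMSO half-life (x axis, h, log scale) of 45 gene lists with the number of genes in parentheses; dots are medians, bars the quartiles over genes, and the red line the median of all genes, 5.61 h. Feedback inhibitors and immediate early regulators lie lowest, at 0.985 and 1.14 h, and cytosolic ribosomal proteins highest, with a median at the ceiling of 69.3 h.

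Signalling and transcription regulators combined fast synthesis with fast decay. By the lower edge described above, their shortest-lived members must be synthesized fast to be in the table. This combination is therefore partly fixed by the table's limit, here and in the feedback inhibitors and DNA-binding families below. Of 25 immediate early and similar regulators, a list written from genes known for short-lived mRNAs and so no independent evidence of it, 22 were in that combination (31.9% of all genes) and 24 were in the shortest quartile (25% of all genes). Their half-lives ran from 0.428 h in KLF6, a tumour-suppressing zinc finger factor, to 6.46 h in HES4, with a median of 1.14 h. MYC, which drives growth, had 0.653 h with a synthesis rate of 339, and JUN, a subunit of AP-1, had 1.14 h with 1189. ATF3, a stress-induced repressor, had 0.795 h with 143, and IER2 had 1.57 h with 333. Members of similar half-life differed widely in synthesis, as in JUN and KLF11 (1.24 h with 112).

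Feedback inhibitors had the lowest median half-life of the lists, 0.985 h over 20 genes. Of these, 15 combined fast synthesis with fast decay (31.9% of all genes) and 5 slow synthesis with fast decay (18.1%). This list, like the others, was chosen with earlier results of these data known, so its rank is no independent evidence. ZFP36L1 and its paralog ZFP36L2 were nearly equal in both values, at 0.607 and 0.629 h and synthesis rates of 1436 and 1430. NFKBIA had 0.658 h with 810, RGS16 had 0.658 h with 351, and TXNIP, an inhibitor of thioredoxin and glucose uptake, had 0.715 h with 220. PPP1R15A and PPP1R15B, which bring phosphatase 1 to eIF2α, had 0.839 and 0.874 h. The p53 inhibitor MDM2 (3.58 h) and the stress pseudokinase TRIB3 (4.10 h) were the longest-lived.

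DNA-binding families followed the same combination. Among 30 KLF, ZBTB and SP factors, 26 combined fast synthesis with fast decay (31.9% of all genes), with a median of 1.42 h. The 165 numbered ZNF genes, mostly KRAB-type repressors, had a median of 1.83 h. Of these, 121 lay in the shortest quartile (25% of all genes). In fast synthesis with fast decay were 112 (31.9% of all genes), and in slow synthesis with fast decay 39 (18.1%). ZNF358 (21.1 h) was the longest-lived of them. FOX and SOX factors had a median of 1.89 h over 23 genes. Within that list SOX2, a pluripotency factor, was the shortest-lived at 1.01 h, FOXC1 had the highest synthesis at 7550 (1.18 h), and FOXM1, which drives mitotic genes, was the longest-lived at 17.0 h.

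HOX genes, which set position along the body axis, were alike in this respect. Of 27 in the table, 24 combined fast synthesis with fast decay (31.9% of all genes), and the median was 2.12 h. The count was 15 with synthesis multiplied by Length and 16 in the STM2457 fit. HOXA5 had 0.966 h and the highest synthesis of the family, 1994. HOXC8 had 0.882 h, HOXA9 1.72 h, HOXB5 2.12 h, HOXC6 2.15 h and HOXD10 3.89 h, and HOXB9 was the longest-lived at 6.97 h. Neighbouring HOX genes and their antisense transcripts overlap, and the sources used here do not give the strand used in counting, so single values within the clusters are uncertain.

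Chromatin regulators and ubiquitin ligases lay between the transcription factors and all genes. The 86 chromatin remodellers and histone modifying enzymes had a median of 3.24 h and a median synthesis rate of 175. Of these, 53 combined fast synthesis with fast decay (31.9% of all genes). INO80, a remodelling ATPase, had the lowest value at 1.19 h. KMT2A, a histone H3 methyltransferase, had the highest synthesis at 1920 with 2.04 h, and the demethylase KDM1A stood apart at 21.8 h. RNF and TRIM ligases had a median of 2.95 h over 65 genes, and FBX, KLHL and KCTD adaptors 3.23 h over 64. The 40 ubiquitin-specific proteases (3.80 h) were split between fast and slow synthesis with fast decay, 14 genes each (31.9% and 18.1% of all genes).

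Hosts of snoRNAs and other long non-coding RNAs were synthesized fast, with a median rate of 275. Of 33, 23 combined this with fast decay (31.9% of all genes). They covered nearly the whole range of half-lives. SNHG12 had 0.765 h, SNHG15 1.02 h, SNHG1 1.41 h and GAS5, whose TOP-like transcript is a known target of nonsense-mediated decay, 1.64 h. NEAT1, the scaffold of paraspeckles, had 3.46 h and MALAT1, a nuclear speckle RNA, had 10.2 h. SNHG5 (23.2 h), SNHG29 (36.5 h) and SNHG6 (45.4 h) were among the long-lived genes of the table. As a class, 65 lincRNAs had a median of 3.10 h and 79 antisense RNAs 2.92 h, against 5.69 h for 8611 protein-coding genes.

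**Figure D5:**
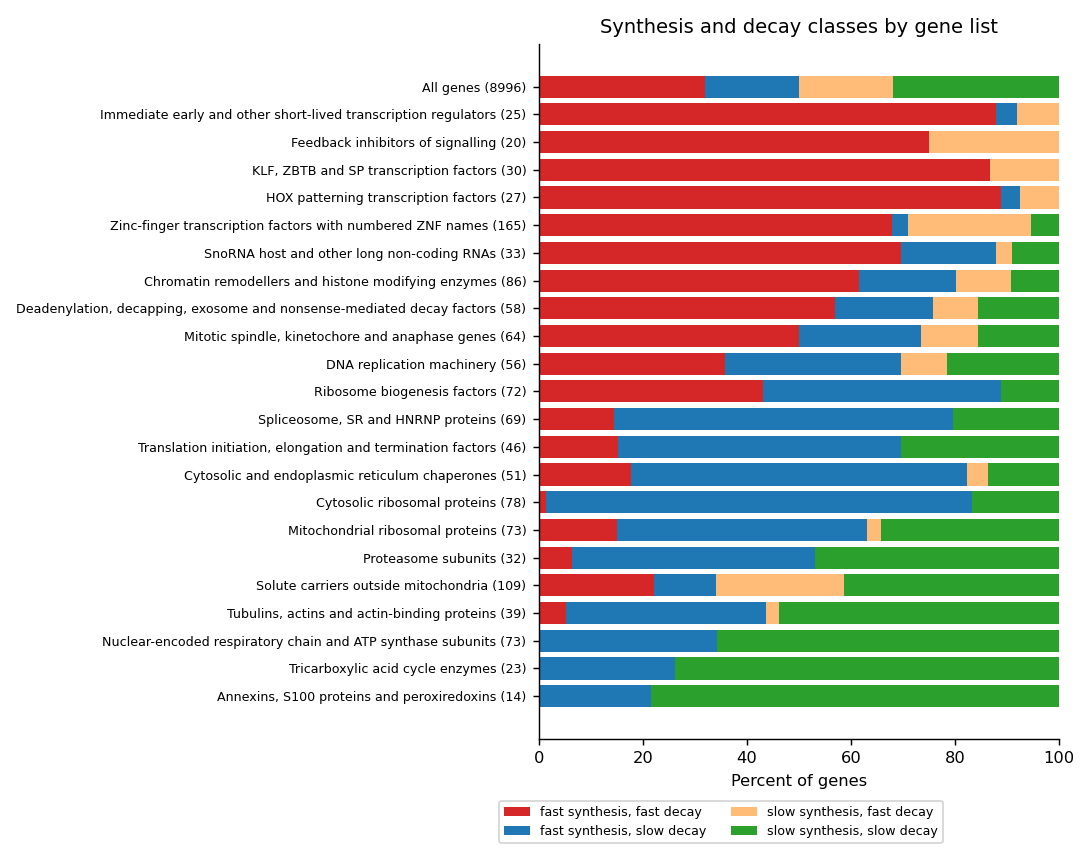
Percent of genes (x axis) in each combination of synthesis and decay, split at the medians of all genes, for all 8996 genes and 22 lists with the number of genes in parentheses. Fast synthesis with fast decay (red) makes up most of the regulator lists, fast synthesis with slow decay (blue) most of the splicing, chaperone and cytosolic ribosomal protein lists, and slow synthesis with slow decay (green) most of the respiratory chain and tricarboxylic acid cycle lists.

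Cell cycle lists had medians near that of all genes, with overlapping quartiles. The 64 mitotic spindle, kinetochore and anaphase genes had a median of 5.27 h, with 32 in fast synthesis with fast decay (31.9% of all genes). TOP2A, the mitotic topoisomerase, had the highest synthesis at 1531 with 9.36 h, and the securin PTTG1 was the longest-lived at 17.4 h. Regulators of G1 and S phase had a median of 4.48 h but a wide spread. The inhibitors CDKN1B (0.713 h), CDKN2C (2.01 h) and CDKN1A (3.12 h) were short-lived, whereas CDKN2A had 18.4 h. Cyclins E2 (CCNE2, 1.65 h), E1 (CCNE1, 2.21 h) and D1 (CCND1, 2.75 h) were short-lived, while CCND2 had 8.37 h, CCND3 10.1 h and their kinase CDK4 10.6 h. E2F3 had 0.916 h and E2F1 6.05 h.

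DNA replication genes had a median of 5.91 h over 56 genes. The MCM2-7 helicase subunits lay close together at 8.80 h (MCM3) to 13.1 h (MCM6), a spread of less than 1.5-fold around a median of 10.6 h. Their synthesis rates were 91.6 to 428. The licensing factor CDT1, which is degraded in S phase as a protein, had 2.51 h and the highest synthesis of the list (862), and DBF4, the activator of CDC7, had 1.66 h. TIMELESS, which protects forks, was the longest-lived at 34.4 h.

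Stress response and sterol genes were split by role. In the integrated stress response list (19 genes, median 4.15 h, quartiles 1.73 and 14.2 h), CHAC1, which degrades glutathione, had 0.565 h, DDIT4, an inhibitor of mTORC1, 0.920 h, CEBPB 1.44 h and XBP1 1.68 h. The amino acid synthesis enzymes of the same list had longer half-lives, 7.87 h for PSPH, 15.7 h for ASNS, 16.6 h for PHGDH and 19.2 h for PSAT1. In the cholesterol list (22 genes, median 6.52 h), the sterol-regulated retention protein INSIG1 had 2.35 h with a synthesis rate of 389, and the late enzyme EBP had 34.6 h with 34.7. These genes were named after their values were seen, apart from CHAC1.

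RNA processing and folding machinery combined fast synthesis with slow decay. Of 69 spliceosome, SR and HNRNP genes, 45 were in this combination (18.1% of all genes), with medians of 11.3 h and 266 for synthesis. The SR proteins, which regulate splicing and their own mRNAs, were shorter-lived as a group (12 genes, 2.68 to 21.5 h, median 6.82 h) than the 7 genes of the Sm core of snRNPs (15.2 h to the ceiling, 4 at the ceiling). SRSF11 had the highest synthesis at 3502 with 3.31 h, and HNRNPA2B1 had 49.6 h. Among 51 chaperones, 33 combined fast synthesis with slow decay. The 8 chaperonin CCT subunits lay between 10.6 h (CCT6A) and 21.9 h (CCT7), and HSP90AA1 had 25.1 h with a synthesis rate of 1506. Ribosome biogenesis factors were also made fast, with 64 of 72 above the median synthesis rate (50% of all genes). These were split by decay into 31 fast (31.9% of all genes) and 33 slow (18.1%). Fast decay led instead with tertiles in place of medians, with synthesis multiplied by Length, and in the STM2457 fit.

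Translation factors had a median of 11.1 h, with 25 of 46 in fast synthesis with slow decay (18.1% of all genes). EEF1A1, which delivers aminoacyl-tRNA, had 53.6 h, and PABPC4, a poly(A)-binding protein, had the highest synthesis of the list at 1895 with 4.67 h. The 11 measured subunits of eIF3, which recruits the small ribosomal subunit, ranged from 5.65 h (EIF3A) to the ceiling (EIF3L). EIF4A2 was the shortest-lived factor at 1.79 h, and it carries the TOP-like start printed above. Aminoacyl-tRNA synthetases had a median of 9.05 h over 32 genes.

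Cytosolic ribosomal protein genes were the longest-lived list. Of 78, 77 lay in the longest quartile (25% of all genes), 44 at the ceiling, and 64 combined fast synthesis with slow decay (18.1%). Their median synthesis rate was 218 and their median implied abundance 17479, against 617 for all genes. The 29 small subunit genes had 21 at the ceiling and the 49 large subunit genes 23. RPS3 had the highest synthesis, 2046, with a half-life of 22.3 h, and RPS15 was the shortest-lived small subunit gene at 11.1 h. RPL7L1, a paralog that acts in ribosome assembly, was the exception to the family, with 4.43 h and a synthesis rate of 625. Ribosomal protein genes have many processed pseudogenes, so part of their reads may have been lost or misplaced.

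Mitochondrial ribosomal protein genes differed from the cytosolic ones in these values. Their median half-life was 10.8 h over 73 genes, their median synthesis rate 95.7 and their median implied abundance 1506. Of these, 35 combined fast synthesis with slow decay (18.1% of all genes), 25 were slow in both (31.9%) and 11 fast in both (31.9%). With synthesis multiplied by Length the lead turned to slow in both, with 44 of 73, and it did so too when tertiles replaced the medians, with 15 of the 30 genes then classed. MRPL44 (2.42 h) was the shortest-lived and MRPL13 (67.9 h) the longest-lived below the ceiling, and 4 were at the ceiling.

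Respiratory chain genes encoded in the nucleus mostly combined slow synthesis with slow decay in DMSO. This held for 48 of 73 (31.9% of all genes), and the other 25 combined fast synthesis with slow decay. The lead turned in the STM2457 fit, where 53 of 73 combined fast synthesis with slow decay. Of the 73, 68 were in the longest quartile. The median half-life was 31.5 h and the median synthesis rate 68.6, below that of all genes. The complexes overlapped: the median was 27.2 h for 34 complex I subunits, 14.5 h for 4 of complex II, 36.4 h for 8 of complex III, 31.6 h for 11 of complex IV and 37.3 h for 15 of the ATP synthase. UQCRFS1, the Rieske protein of complex III, was the shortest-lived at 7.53 h. ATP5MC2, which codes for the c subunit of the ATP synthase ring, had the highest synthesis at 443 with 29.9 h.

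The mRNAs for the same complexes made inside mitochondria were made at far higher rates and had shorter half-lives. Their 13 genes had a median half-life of 4.14 h, with 2 in the shortest quartile (25% of all genes), and a median synthesis rate of 18162. Of the 13, 11 were fast in both (31.9% of all genes in DMSO), against 7 in the STM2457 fit. MT-CYB (2.57 h) and MT-ND1 (2.698 h) were the shortest-lived, followed by MT-ND2 (3.34 h), MT-ND3 (3.50 h), MT-ATP8 (3.86 h), MT-CO2 (3.88 h), MT-ND5 (4.14 h), MT-ND4 (4.28 h), MT-CO3 (4.64 h), MT-CO1 (4.76 h), MT-ATP6 (5.38 h) and MT-ND4L (6.09 h). MT-ND6, the only one of them coded on the light strand, had the longest half-life at 10.3 h and the lowest synthesis rate at 355. The libraries read polyadenylated RNA, and the sources used here do not give the counting strand, so both values of MT-ND6 are uncertain. The part of capture and counting in its difference from the other mitochondrial genes was not tested. MT-CO3 had the highest synthesis rate (31050) and implied abundance (207934) of the whole table. MT-ATP6 and MT-ATP8 share a transcript, as do MT-ND4 and MT-ND4L, so their reads are not independent, and MT-ATP6 was at the ceiling in the STM2457 fit.

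Central carbon metabolism was long-lived at very different synthesis rates. The 23 tricarboxylic acid cycle genes had a median of 17.3 h and a median synthesis rate of 51.9. Of these, 17 were slow in both (31.9% of all genes). The 23 glycolysis and pentose phosphate genes, a list by symbol that also takes in the phosphatase PGAM5, had a median of 20.2 h. Of these, 11 combined fast synthesis with slow decay (18.1% of all genes) and 11 were slow in both (31.9%). HK2, the inducible hexokinase, was slow in synthesis and fast in decay (4.29 h). GAPDH (26.3 h, synthesis 1039) and ENO1 (28.8 h, 1024) were nearly equal in both values, while PGK1 (34.5 h, 54.9) and TKT (40.1 h, 50.02) had longer half-lives and far lower rates. PKM had a rate of 1001 but 7.78 h.

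Other long-lived groups were the proteasome, the cytoskeleton and a set of annexins, S100 proteins and peroxiredoxins. Proteasome genes had a median of 17.4 h over 32 genes, 19.7 h for the 14 of the core particle and 11.9 h for the 18 of the regulatory particle, with overlapping ranges of 8.39 h to the ceiling and 4.50 h to the ceiling. Tubulins, actins and actin-binding proteins had a median of 15.3 h over 39 genes. All 14 annexins, S100 proteins and peroxiredoxins were in the longest quartile (25% of all genes), and 11 were slow in both (31.9%). PRDX1, an abundant peroxidase, had 51.2 h with a synthesis rate of 264. Solute carriers outside mitochondria stood apart from these, with a half-life near that of all genes (5.89 h over 109) and a low synthesis rate (53.9).

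In GENCODE 29, exons of some of the genes named above overlap exons of another gene on the same strand, which makes their values uncertain: ZNF503, ZNF358, KMT2A, MDM2, CCND2, ASNS, PGK1, ATP5MC2, EIF3L, RPS29, TSPAN7, AC011476.1 and, in the HOX clusters, HOXA9, HOXC6 and HOXD10.

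Single pairs show the same implied abundance reached along different routes. ID2 (0.748 h, synthesis 2461) and PTTG1 (17.4 h, 105) had implied abundances of 2656 and 2620. ZBTB7A (0.843 h, 3023) and SSR3, a translocon subunit (36.0 h, 72.8), had 3675 and 3784. Pairs were picked for equal abundance after their values were seen.

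The labelled cell line was set against markers. Of 8 genes typical of HEK293 lines, which express neuronal and kidney progenitor genes, 6 were in the table: VIM, NEFL, NEFM, KRT18, CDH2 and WT1. VIM had 23.2 h and an implied abundance of 7084, and WT1 1.19 h and 111, near the lower edge of the table. Of 13 markers of other cell types, 2 were listed, COL1A1 (implied abundance 286) and CDX2 (567). The neural marker OLIG2, also in the list of other cell types, was in the table as well (231), and the blood, endothelial, muscle and liver markers among them were not in the table.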

How the data were processed

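The authors deposited 1 table with a half-life, a synthesis rate and a Length per gene for DMSO and STM2457. The submitters' processing notes name FastQC 0.11.9, STAR 2.7.8a and the build GRCh38.p12. Per the labels' protocols, alkylated RNA was made into QuantSeq forward 3′ libraries. The kinetics tool, annotation, counting strand, gene filter and the DMSO libraries that entered the fit were not stated in the sources used here, and the table names no unit: hours are inferred from the ceiling, and the synthesis scale is unknown.

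Implied abundance was synthesis times half-life over ln 2. Values within 1e-06 of the highest half-life were taken as tied, so the longest-lived set held all 229 tied genes. Relations were Spearman correlations over genes, as descriptions with no test, because genes are not replicates. The lists, the members and the rules were chosen with earlier results of these data known. Genes named by rule were the 10 shortest half-lives, the highest and lowest synthesis rates of both extremes, the highest and lowest abundances, the highest synthesis rates, and the shortest-lived, longest-lived below the ceiling and most synthesized member of each list. Other named members, and the subunit groups of complexes, were chosen after their values were seen. Of 8996 identifiers, 8982 matched GENCODE 29 without their version, 3241 with it, and 8899 had equal symbols. Features were read from 1 transcript of each of 8496 genes, the one with the longest coding sequence, and 99.7% of these began with ATG. The rank correlation and the rectangle at the lower edge were tested on simulated data. The split at the medians, the implied abundance and the tie at the ceiling were checked on a few fixed values. The counts of lists, sets, junctions and motifs were not tested in this way. Software was Python 3.11.15 with NumPy 2.4.6, pandas 2.3.3 and Matplotlib 3.10.9. The alternatives varied the gene range, the set size, the window, the split, the fit and the length scaling. Some members of the lists are not reported here by name.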

Additional observations from a re-analysis of the deposited data

How the results depend on the processing

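No correlation changed sign under the alternatives run, and 54 of the 64 alternative values of correlations, medians, shares and counts stayed within the limits set for a change (0.1 for a correlation, 1.5-fold for a median or count). The other 10 did not. In the STM2457 fit, which used 8993 genes, rho of half-life with synthesis was -0.205 and of implied abundance with half-life 0.605, above the 0.597 with synthesis, and 5 lists instead of 12 had over 50% of their members in the longest quartile. In the rectangle clear of the lowest abundance, chosen after seeing the data, rho of half-life with synthesis was -0.131. With synthesis multiplied by Length, implied abundance had a rho of 0.719 with synthesis and 0.160 with half-life. In the last 250 bases of the 3′ UTR, TTATTTATT was found in 3.47% of the shortest-lived and 1.56% of all genes, and TGTANATA in 9.59% of all genes. In that window TGTANATA was found in 22.9% of the shortest-lived, a value within the limits. Within the shortest coding sequences, also added later, rho with junction density was 0.299. The cause of these shifts was not tested. The leading combination of synthesis and decay was kept in 28 of 45 lists under all 4 of the STM2457 fit, medians of genes below the ceiling, synthesis multiplied by Length, and tertiles in place of medians. It turned in the others under at least 1 of these, as in respiratory chain genes, where fast synthesis with slow decay led with 53 of 73 in the STM2457 fit, and mitochondrial ribosomal proteins, where slow in both led with 44 of 73 after multiplication by Length. A longest-lived set of 100 genes could not be formed, since 229 tie. No paired analysis was possible because the table holds 1 value per gene and treatment, and for the same reason no replicate could be left out. Depth is unknown, so the precision of single values, above all below 0.5 h and near the ceiling, cannot be given.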

Other observations

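The 58 factors of deadenylation, decapping, the exosome and nonsense-mediated decay had a median half-life of 4.19 h. Of these, 33 combined fast synthesis with fast decay (31.9% of all genes). UPF1, the helicase of nonsense-mediated decay, had 3.77 h with a synthesis rate of 560, and its kinase SMG1 had 2.57 h. The 5′ to 3′ exonucleases differed, with 3.31 h for the cytoplasmic XRN1 and 14.9 h for the nuclear XRN2, the longest-lived of the list below the ceiling. CNOT1, the scaffold of the CCR4-NOT deadenylase, had 7.72 h. The BCL2 family (11 genes, median 5.95 h) was split by decay, with BCL2L11 at 1.25 h, PMAIP1 at 1.55 h, MCL1 at 1.73 h and BBC3 at 1.79 h against BAX at 12.8 h and BID at 14.2 h. PMAIP1, BCL2L11 and BBC3 promote apoptosis, as do BAX and BID, while MCL1 blocks it. Exons of MCL1 overlap those of ADAMTSL4-AS1 on the same strand, and its value is uncertain.

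Subunits of other shared assemblies differed in half-life. The ratio of the upper to the lower quartile was 3.01 for nuclear pore and 2.66 for mitochondrial import genes, below the 3.49 of all genes. For RNA polymerase II and Mediator genes this ratio was 3.51, close to that of all genes. RNA polymerase II and Mediator genes had a median of 6.23 h over 37 genes, and ranged from 0.818 h in MED26, which overlaps other genes, to 45.4 h in MED24. Nuclear pore genes ranged from 1.75 h in NUP62, which overlaps IL4I1, to 16.2 h in NUP93 around a median of 5.91 h. Mitochondrial import genes had a median of 7.78 h over 22 genes, with TIMM29 at 1.66 h and TOMM22 at 31.4 h. COPI, COPII and translocon genes had a median of 10.9 h, with 17 of 29 in the longest quartile (25% of all genes), and V-ATPase genes 10.4 h, with 8 of 17. Of the histones, 3 genes were listed, in libraries that read polyadenylated RNA: HIST2H2BD had 1.33 h, HIST1H4C 2.84 h with a synthesis rate of 3224, and HIST1H1C 8.19 h. Several of these genes were named after their values were seen.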
